A study of Saccharomyces cerevisiae with 18 samples.

Results

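The response to oxygen removal was examined in AAP, the yeast strain labelled as making less amylase. Its 3 anaerobic arrays were set against its 3 aerobic arrays, chosen by sample title from 18 arrays, over all 5498 S. cerevisiae probe sets that had 1 gene. Every strain of the series came from CEN. PK 530-1C, a laboratory strain without its own triose phosphate isomerase gene TPI1. Each is described as carrying the fission yeast isomerase gene tpi1 (POT1) on a multicopy plasmid, which it needs to grow on glucose. In AAP the plasmid also held amylase behind the alpha factor leader, a peptide that directs secretion, under the TEF1 promoter. AAC, labelled as the high producer, held amylase with the same leader under the TPI1 promoter, and NC held the plasmid with the TPI1 promoter and no amylase; both entered only where the oxygen effect of AAP was compared with theirs. Each strain was grown in aerobic and in anaerobic batch culture in 500 ml of a buffered synthetic medium at 30 °C and 600 rpm and sampled early in glucose growth, with 3 biological replicates per group. Plasmid copy number and the amylase transcript were not analysed here, and the arrays read bulk RNA, so fewer cells with a transcript and less transcript per cell cannot be told apart.

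Budding yeast can grow without oxygen, but oxygen serves both as the end of the respiratory chain and as a substrate for making heme, ergosterol and unsaturated fatty acids. Heme acts as the oxygen signal: with heme, Hap1 and the Hap2/3/4/5 complex switch on respiratory genes, and Rox1 represses genes used when oxygen is scarce. When sterols run low, Upc2 switches on sterol uptake and the DAN/TIR genes of the anaerobic cell wall. Protein secretion also meets oxygen, because Ero1, which drives disulfide bond formation in the endoplasmic reticulum, passes electrons to oxygen in aerobic cells.

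The array labelled AAP aerobic replicate 3 went against its label. On the log2 scale used for all levels here, its fission yeast tpi1 signal was 9.24, against 12.42 and 12.38 on AAP aerobic replicates 1 and 2 and 12.45, 12.48 and 12.42 on the anaerobic AAP arrays. The AAC aerobic arrays read between 8.97 and 9.41. DET1, the gene beside TPI1, showed the same split, with 7.80, 7.61 and 11.28 on the aerobic AAP arrays and 7.09, 7.09 and 6.80 on the anaerobic ones. Across all tested probe sets the array had a mean Pearson r of 0.993 with the AAC aerobic arrays and 0.978 with the other AAP aerobic arrays, where probe sets are not independent replicates. Results that rest on it are therefore given with it and without it.

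Control probe sets of the array also split the cultures. The bioB controls, spiked into the hybridization mix, had a mean signal of 5.30 and 5.38 on AAP aerobic replicates 1 and 2, 6.47 on the array labelled AAP aerobic replicate 3, and 6.59, 6.62 and 6.64 on the anaerobic AAP arrays. On all other aerobic arrays they read 5.31 to 5.38 and on all other anaerobic arrays 6.39 to 6.66, so hybridization control level and oxygen cannot be told apart. The dap poly-A controls averaged 5.98, 6.23 and 5.80 in aerobic AAP and 5.54, 5.54 and 5.43 in anaerobic AAP, without overlap. The cre hybridization controls gave 11.04, 11.16 and 11.30 against 11.46, 11.54 and 11.40, but their conditions overlapped across the strains. The 17 probe sets for ribosomal RNA averaged 10.63, 10.50 and 9.78 in aerobic AAP and 8.91, 8.48 and 8.58 in anaerobic AAP, without overlap. The difference between 3′ and 5′ control probe sets is a measure of RNA or target length. For WBP1 it was 1.05, 1.09 and 1.61 in aerobic AAP and 1.67, 2.01 and 1.86 in anaerobic AAP. On the anaerobic arrays of AAC it was 1.06 to 1.52 and on those of NC 1.32 to 1.48. ACT1 overlapped in AAP, at 0.52, 0.53 and 0.99 against 0.86, 1.12 and 0.73. SPT15 gave 1.03, 1.02 and 0.96 against 1.15, 1.29 and 1.09. When the anaerobic AAP arrays were set against the array labelled AAP aerobic replicate 3 alone, which has a high bioB level, 1785 of the 1800 probe sets called both with and without that array kept their direction and 1332 were called. Of the 198 among them that changed by 2-fold or more, 197 kept their direction and 193 were called. This arm is 1 array, taken to vary like the other groups, it was part of 1 of the fits that chose these probe sets, and it resembles AAC, so the values describe that array and do not separate bioB level from oxygen. The part of ribosomal RNA and of target length in the results was not tested. Array medians lay between 7.08 and 7.13, 90.1% to 91.9% of probe sets were above the background set by the fission yeast probe sets. Precision is limited by the number of arrays.

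**Figure D1:**
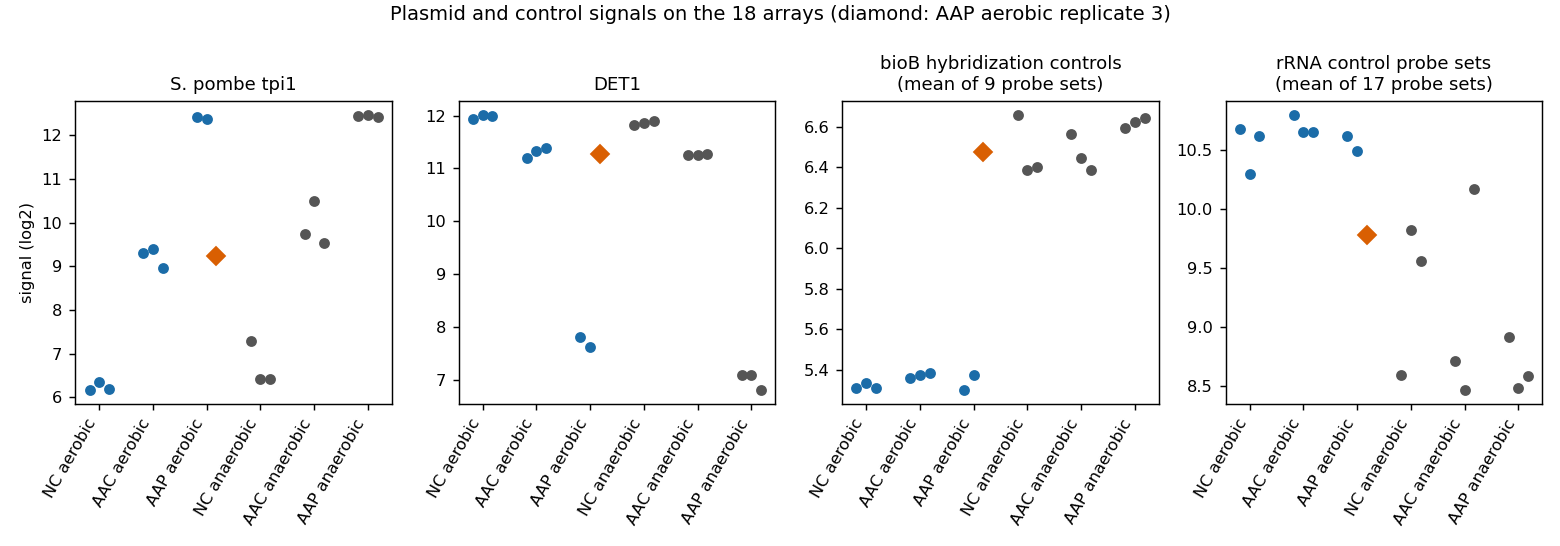
Signal (log2, vertical axes) of fission yeast tpi1, DET1, the bioB hybridization controls and the ribosomal RNA controls on each of the 18 arrays, by strain and condition (horizontal axis). Each point is 1 array and the orange diamond is the array labelled AAP aerobic replicate 3, which lies with AAC for tpi1 (9.24) and DET1 (11.28) and with the anaerobic arrays for bioB (6.47).

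Over all genes, a large share of the transcripts of AAP differed in level between the anaerobic and the aerobic arrays. limma, fitted to all 18 arrays with Benjamini-Hochberg adjustment over the 5498 probe sets at 0.05, called 2110 of them (38.4%), 1163 higher (21.2%) and 947 lower (17.2%) in anaerobic AAP. By 2-fold or more, 100 were higher (1.82%) and 125 lower (2.27%), against 108 (1.96%) and 109 (1.98%) when the array labelled AAP aerobic replicate 3 was left out. The arrays of both conditions did not overlap for 46.2% of probe sets. With that array left out the count was 2303 (41.9%), 1160 higher (21.1%) and 1143 lower (20.8%), and the arrays did not overlap for 65.2%. Of these, 1800 were called both ways, 947 higher and 853 lower, and 0 changed direction. The balance of directions depended on scaling: with each array centred on its median 998 were higher and 1115 lower (47.2% higher, against 55.1%), and 1036 and 1294 without the array. The median log2 difference over all probe sets, anaerobic minus aerobic as for every difference given here, was 0.02, and 0.01 without the array. Counts for each list below stand beside the shares of all probe sets, 21.2% higher and 17.2% lower (21.1% and 20.8% without the array).

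**Figure D2:**
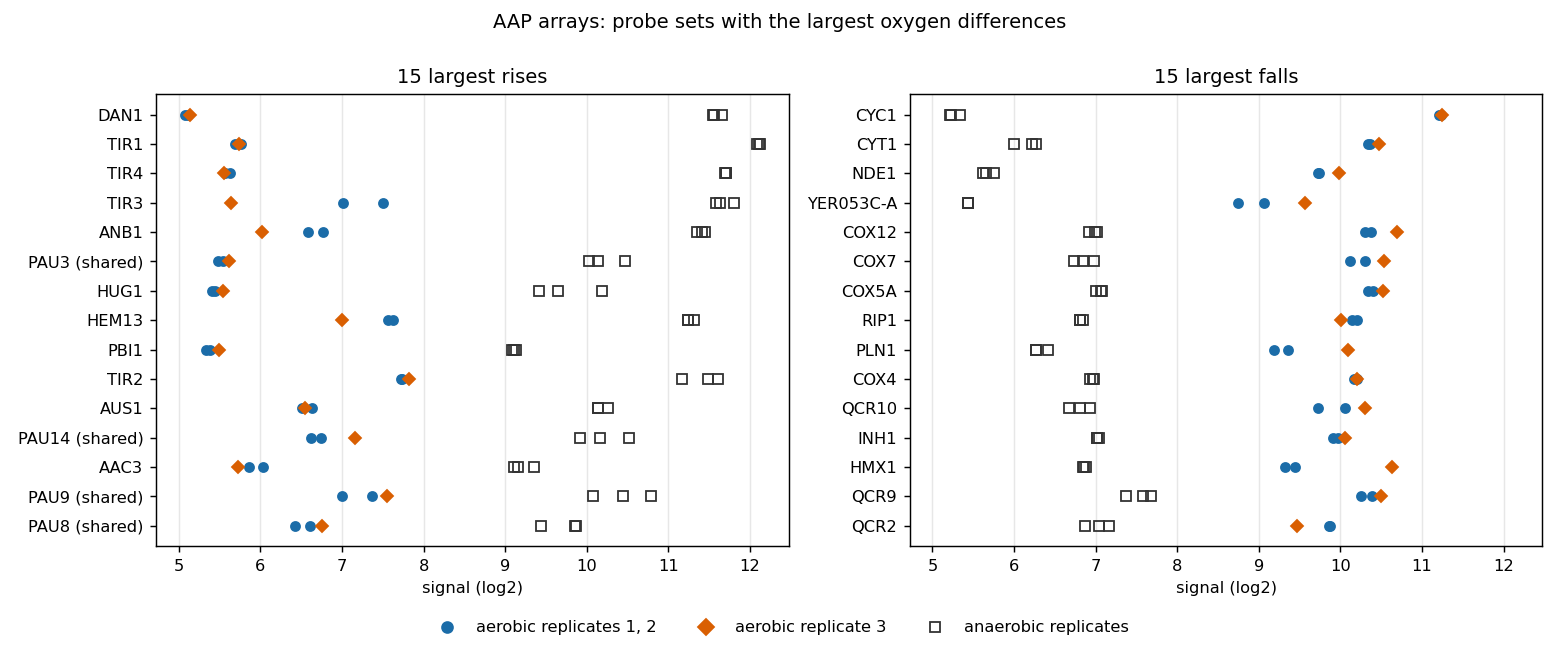
Signal (log2, horizontal axes) on each of the 6 AAP arrays for the 15 largest rises and the 15 largest falls that were called both with all AAP arrays and with aerobic replicate 3 left out and whose groups did not overlap. Filled circles and the orange diamond are aerobic arrays, open squares anaerobic arrays, and shared marks a probe set that matches several near-identical genes. For DAN1 the anaerobic arrays sit at 11.55 to 11.66 and the aerobic arrays near background, and for CYC1 the order is turned.

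The anaerobic cell wall genes gave the largest rises. All 6 DAN/TIR genes, which encode mannoproteins of the cell wall, rose with and without the array, with a median log2 difference of 5.54 (5.26 without it). TIR1 read 5.77, 5.69 and 5.73 on the aerobic arrays and 12.11, 12.09 and 12.12 on the anaerobic arrays. DAN1 read 5.11, 5.07 and 5.14 against 11.55, 11.55 and 11.66. Both genes were close to background in air and among the brightest signals without it, and the array labelled AAP aerobic replicate 3 did not stand out. TIR1 rose 83.2-fold (log2 difference 6.38 ± 0.04, SE, n = 3 and 3, adjusted p = 2.85e-22 by limma), and DAN1 rose at least 64.5-fold from background (adjusted p = 8.03e-21). TIR4 rose 69.6-fold, TIR2 12.7-fold and DAN4 5.99-fold.

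TIR3 stood apart within this family. It read 7.01, 7.51 and 5.64 on the aerobic arrays and 11.63, 11.58 and 11.80 on the anaerobic arrays, so the array labelled AAP aerobic replicate 3 was the lowest, and its log2 difference moved from 4.95 to 4.41 without that array. DAN4 rose by less in AAP (log2 difference 2.58) than in NC (3.55), a difference of -0.97 (adjusted p = 0.00639, and 0.00841 without the array). The other mannoproteins of the family did not pass the test against NC with all arrays.

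Seripauperins, the PAU genes, form a large family of near-identical cell wall genes, and 13 of the 24 listed had a probe set here, most of them shared by several members. Of these, 12 rose with all arrays and 13 without the array, with median log2 differences of 2.15 and 2.17. The shared PAU3 probe set read 5.48, 5.54 and 5.62 in air and 10.14, 10.02 and 10.47 without, at least 24.6-fold. PAU21 was at background in both conditions, so no fold is given for it. PAU5 rose 3.02-fold, from 5.62, 5.67 and 5.81 to 7.27, 7.13 and 7.48. Its log2 difference of 1.59 in AAP lay below the 3.03 of NC and the 2.87 of AAC, with differences between strains of -1.43 (adjusted p = 0.00669) and -1.27 (adjusted p = 0.0194), and both passed without the array.

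FLO11, which encodes the flocculin of adhesion and pseudohyphal growth, also rose less in AAP. It read 6.97, 6.97 and 7.23 aerobically and 9.36, 9.60 and 9.04 anaerobically, a 4.85-fold rise with no overlap (log2 difference 2.28 ± 0.11, SE). NC rose by 3.32 and AAC by 4.21 on the log2 scale, which put AAP lower by -1.05 against NC (adjusted p = 0.000928) and by -1.93 against AAC (adjusted p = 3.64e-06). Of 15 measured genes for cell wall proteins outside these families, FLO11 and other flocculins included, 3 rose and 1 fell (5 and 2 without the array). Among all probe sets 21.2% were higher and 17.2% lower. The fall was that of CWP2, from 11.84, 11.85 and 11.92 to 10.17, 10.15 and 9.98, or 3.41-fold.

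Regulators of the oxygen response moved in both directions: 9 of 16 rose and 6 fell with all arrays, and 7 and 5 without the array. UPC2, the sterol sensor and activator, read 6.20, 6.19 and 6.16 in air and 8.34, 8.30 and 8.24 without, a 4.32-fold rise. ROX1, the repressor of hypoxic genes, read 7.06, 7.22 and 7.27 in air and 5.40, 5.50 and 5.33 without, at least 3.06-fold lower and at background. HAP4, the activating subunit of the Hap complex, fell 2.82-fold from 9.18, 9.10 and 8.97 to 7.61, 7.71 and 7.45. These 3 genes had tight groups that did not overlap. MGA2, which activates fatty acid desaturation, rose 2.43-fold, HAP1 2.32-fold and SUT1, an activator of sterol uptake, 1.66-fold, while MOT3, a repressor of hypoxic genes, fell 1.75-fold.

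Paralog pairs whose members serve different oxygen conditions moved oppositely. All 5 aerobic members fell and 4 of 5 hypoxic members rose, with and without the array. ANB1, the hypoxic copy of translation factor eIF5A, read 6.77, 6.58 and 6.02 in air and 11.42, 11.35 and 11.45 without, a 30.9-fold rise (log2 difference 4.95 ± 0.15, SE, adjusted p = 4.71e-13). Its aerobic counterpart HYP2 fell 1.64-fold, from 11.63, 11.66 and 11.71 to 10.97, 11.06 and 10.84. In both probe sets the aerobic and anaerobic arrays did not overlap. Among ADP/ATP carriers of the mitochondrial membrane AAC3 rose 10.1-fold and PET9 fell 4.28-fold. Among cytochrome oxidase subunits COX5B rose 2.73-fold and COX5A fell 10.4-fold, and among HMG-CoA reductases HMG2 rose 2.16-fold and HMG1 fell 4.72-fold. CYC7, the minor cytochrome c gene, was the exception: its log2 difference was -0.12 (adjusted p = 0.586), while CYC1 fell.

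Heme synthesis and breakdown together showed 2 rises and 3 falls among 9 genes. HEM13, coproporphyrinogen oxidase, whose reaction consumes oxygen, read 7.62, 7.57 and 7.0 in air and 11.25, 11.24 and 11.31 without, a 14.6-fold rise. HEM14, the next oxygen-consuming enzyme, rose 2.52-fold, by 1.33 on the log2 scale in AAP against 0.80 in AAC (difference 0.54, adjusted p = 0.00233, and 0.000729 without the array). HMX1, heme oxygenase, which breaks heme down, fell 7.65-fold from 9.45, 9.31 and 10.63 to 6.86, 6.88 and 6.85. For HMX1 the array labelled AAP aerobic replicate 3 was the highest, and the log2 difference was -2.94 with it and -2.52 without it.

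Among genes for sterol uptake, esterification and transfer, 8 of 16 rose and 4 fell (9 and 4 without the array). AUS1, a sterol importer, read 6.51, 6.63 and 6.54 against 10.13, 10.14 and 10.26, a 12.3-fold rise without overlap. PDR11, another importer, rose 2.51-fold. The esterifying enzymes went opposite ways: ARE1 rose 3.25-fold, from 6.50, 6.58 and 6.58 to 8.18, 8.33 and 8.24, and ARE2 fell 2.02-fold, from 7.29, 7.29 and 7.34 to 6.28, 6.46 and 6.12. PBI1, a gene without a role named here, rose at least 11.6-fold.

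Sterol synthesis split by stage. Of 17 genes from squalene to ergosterol, 8 rose and 3 fell (9 and 3 without the array), whereas of 9 genes of the earlier mevalonate pathway 1 rose and 7 fell (1 and 8). NCP1, which supplies electrons to the oxygen-using enzymes, rose 1.97-fold, ERG24 1.65-fold and ERG6 1.56-fold. ERG5, a cytochrome P450 late in the route, fell 4.03-fold, from 8.86, 8.98 and 8.62 to 6.82, 7.05 and 6.56. In the mevalonate pathway ERG13 fell 1.86-fold, IDI1 1.73-fold and ERG8 1.64-fold. ERG27, a keto reductase, had a log2 difference of 0.12 that did not pass in AAP, against 0.54 in NC and 0.52 in AAC, and it was lower in AAP than in either strain in the test of the difference, with and without the array.

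For fatty acids 7 of 11 genes rose and 2 fell, with and without the array. OLE1, the fatty acid desaturase, which needs oxygen, rose 1.39-fold, from 10.19, 10.18 and 10.29 to 10.61, 10.89 and 10.59, and SUR2, a sphingolipid hydroxylase, rose 3.15-fold. The acyl-CoA synthetases moved apart: FAA4 rose 2.02-fold and FAA1 fell 6.23-fold. FAA1 read 8.74, 8.66 and 8.81 in air and 6.13, 6.28 and 5.88 without. PLN1, a lipid droplet protein, fell 9.36-fold.

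**Figure D3:**
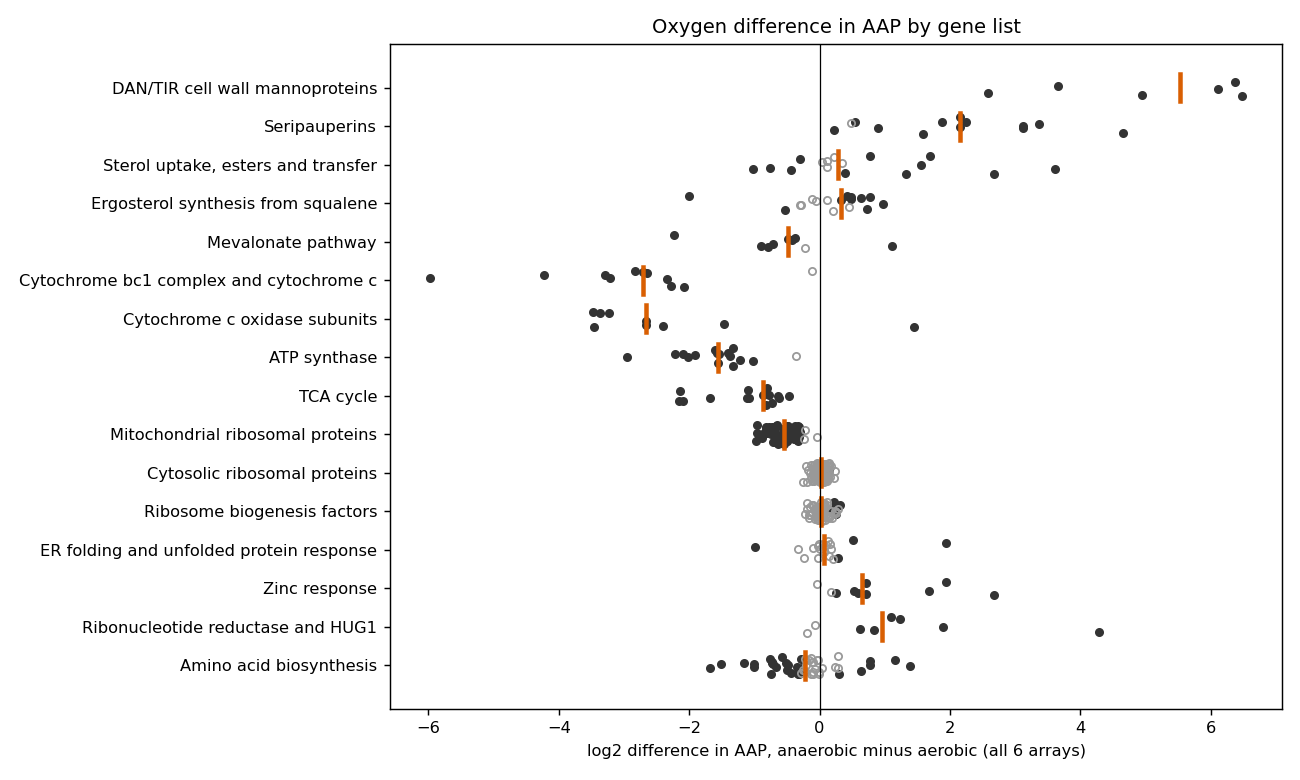
Log2 difference in AAP (anaerobic minus aerobic, all 6 arrays, horizontal axis) of each measured gene of 16 lists. Filled points were called both with all AAP arrays and with aerobic replicate 3 left out, open points were not called both ways, and the orange bar is the median of the list, 5.54 for DAN/TIR genes and -2.71 for the bc1 complex and cytochrome c. Vertical scatter within a list only separates the points.

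Respiratory chain transcripts fell together. In the cytochrome bc1 complex and its electron carrier, cytochrome c, 10 of 11 genes fell with and without the array and 0 rose, with a median log2 difference of -2.71. CYC1, the main cytochrome c gene, read 11.23, 11.21 and 11.25 in air and 5.21, 5.34 and 5.22 without, at least 50.6-fold lower and at background (adjusted p = 7.83e-20). CYT1, cytochrome c1, read 10.36, 10.34 and 10.47 against 6.22, 6.27 and 6.0, 18.7-fold lower. The Rieske iron-sulfur protein gene RIP1 fell 9.81-fold, QCR10 9.31-fold, QCR9 7.14-fold and QCR2 6.56-fold. For all 6 of these genes the 3 aerobic arrays lay above the 3 anaerobic arrays by more than 2 log2 units.

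Of 9 cytochrome c oxidase subunits, 8 fell and COX5B rose. COX12 read 10.37, 10.30 and 10.69 in air and 6.99, 7.02 and 6.92 without, 11.1-fold lower, and COX7 fell 11-fold. COX4 read 10.20, 10.16 and 10.20 against 6.99, 6.97 and 6.93, 9.36-fold lower. The subunits fell by more than the genes that assemble the enzyme, of which 18 of 23 fell and 1 rose (16 and 2 without the array) with a median log2 difference of -0.32, against -2.66 for the subunits. COX15, which makes heme A, fell 2.61-fold and the assembly factor COA2 at least 2.76-fold.

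The fall of these subunits was deeper in AAP than in AAC. In the test of the difference between strains, which called 195 probe sets for AAP minus AAC (3.55%; 77 lower, 1.40%) and 286 without the array (5.20%; 107 lower, 1.95%), 7 of the 9 oxidase subunits and 6 of the 11 bc1 and cytochrome c genes were lower in AAP (6 and 6 without the array). COX4 had log2 differences of -3.23 in AAP, -2.70 in NC and -2.31 in AAC, so that AAP minus AAC was -0.91 ± 0.10 (SE, adjusted p = 0.000173), and QCR10 had -3.22, -2.75 and -2.13, so that AAP minus AAC was -1.09 ± 0.17 (adjusted p = 0.00289). Without the anaerobic AAC array whose ribosomal RNA controls were high, and with AAP aerobic replicate 3 left out too, COX4 gave -0.80 and QCR10 -0.89, and 5 oxidase and 5 bc1 genes were called. With each of 12 single arrays left out in turn, the difference from AAC lost its call in 10 fits for COX7, 5 for CYT1 and 3 for QCR9. Against NC, where the test called 687 probe sets (12.5%, with 246 lower, 4.47%), 2 genes of each list were lower in AAP with all arrays. Leaving out NC anaerobic replicates 2 and 3, whose ribosomal RNA controls were high for anaerobic arrays, leaves 1 array in that group. The calls against NC in these lists did not hold in that fit, which has fewer arrays, and no counts are given for it. It enters the choice of flagged genes against NC further below.

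Transcripts for ATP synthase fell for 15 of 16 genes with and without the array, with a median log2 difference of -1.55. INH1, which inhibits the enzyme when it runs in reverse, fell furthest: it read 9.97, 9.90 and 10.05 in air and 7.04, 7.02 and 7.02 without, 7.72-fold lower. The catalytic subunits ATP2 and ATP1 fell 4.04-fold and 2.03-fold. STF1 was the gene that was not called, with a log2 difference of -0.36 (adjusted p = 0.0731), and it was called without AAP aerobic replicate 2 (-0.51, adjusted p = 0.0147).

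All 15 genes of the TCA cycle fell with and without the array, with a median of -0.87. The 4 subunits of succinate dehydrogenase, which feeds the respiratory chain, fell most beside citrate synthase CIT1 (4.26-fold): SDH1 4.46-fold, SDH2 4.39-fold, SDH3 3.21-fold and SDH4 2.15-fold. SDH1 read 8.87, 8.84 and 9.75 in air and 7.02, 7.02 and 6.95 without, so the array labelled AAP aerobic replicate 3 was the highest. ACO1, aconitase, fell by less in AAP (log2 difference -0.47) than in NC (-1.03) or AAC (-0.99), and both differences passed with and without the array, although that from AAC did not when any 1 of 4 other arrays was left out (adjusted p = 0.0529 to 0.0671). In this list 4 genes fell by less in AAP than in AAC (5 without the array), where 2.15% of all probe sets were higher (3.26% without it).

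NADH dehydrogenases of the mitochondrion fell as well. NDE1, which oxidizes cytosolic NADH, read 9.73, 9.72 and 9.98 in air and 5.62, 5.66 and 5.76 without, 17.5-fold lower, and NDI1, its counterpart in the matrix, fell 4.59-fold. CYB2, the lactate dehydrogenase that hands electrons to cytochrome c, fell at least 3.87-fold to background. The fumarate reductases, which can reoxidize reduced flavins without oxygen, rose: FRD1 2.94-fold, from 7.31, 7.21 and 7.08 to 8.83, 8.77 and 8.68, and OSM1 1.20-fold. OSM1 lost its call without AAP aerobic replicate 1 (adjusted p = 0.0918) and without AAP anaerobic replicate 2 (adjusted p = 0.0872). In the list of 12 such redox enzymes 2 rose and 6 fell.

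Mitochondrial ribosomal protein genes fell for 75 of 78 measured members, by less per gene (median log2 difference -0.55, and 75 fell and 1 rose without the array). MRPS28, with the smallest p, read 8.23, 8.28 and 8.22 against 7.65, 7.59 and 7.70, 1.51-fold lower. The cytosolic ribosome did not share this: of 128 genes 5 rose and 0 fell by limma (1 and 2 without the array), with a median of 0.02. RPS25B was the gene with the smallest p, 1.11-fold higher, and its call was lost under quantile normalization (adjusted p = 0.247), under centring (adjusted p = 0.0675) and without AAP anaerobic replicate 1 (adjusted p = 0.0571) or 2 (adjusted p = 0.0618).

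Few chaperones and oxidoreductases that fold secreted proteins were called in AAP. Of 19 such genes, those of the unfolded protein response included, 3 rose and 1 fell (4 and 1 without the array). EUG1, a disulfide isomerase, rose 3.86-fold, from 7.58, 7.24 and 7.47 to 9.32, 9.49 and 9.33, ERV2, a sulfhydryl oxidase, 1.43-fold, and CPR5, a prolyl isomerase, 1.22-fold. CPR5 lost its call without AAP aerobic replicate 1 (adjusted p = 0.0646) and without AAP anaerobic replicate 3 (0.17, adjusted p = 0.0773). KAR2, the main chaperone, read 11.18, 10.72 and 11.31 in air and 11.04, 11.25 and 11.10 without, with overlap (log2 difference 0.06, adjusted p = 0.705, and 0.18, adjusted p = 0.153, without the array). ERO1 read 9.31, 8.56 and 9.70 against 8.75, 8.96 and 8.86, with the aerobic arrays spread on either side of the anaerobic ones (log2 difference -0.33, adjusted p = 0.182). Without AAP aerobic replicate 2 ERO1 was called lower (-0.64, adjusted p = 0.000385), as was SIL1, the nucleotide exchange factor of KAR2 (-0.48, adjusted p = 3.05e-05). PDI1, the main disulfide isomerase, had a log2 difference of 0.15 (adjusted p = 0.0578) that passed without the array (0.17, adjusted p = 0.0409).

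HAC1, whose product activates the unfolded protein response after its RNA is spliced, fell. It read 10.07, 10.25 and 9.68 in air and 9.21, 9.07 and 8.74 without, 1.99-fold lower with no overlap (log2 difference -0.99 ± 0.13, SE, adjusted p = 1.77e-05, and -1.15 without the array). The array does not tell spliced from unspliced RNA in the values used here. In NC the log2 difference was -0.32 and in AAC -0.33. The fall was deeper in AAP than in NC by -0.67 (adjusted p = 0.0310, and 0.00437 without the array, but 0.0517 to 0.0778 when any 1 of 7 other arrays was left out), and than in AAC by -0.66 (adjusted p = 0.0601, and 0.00519 without the array).

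Several folding genes had a lower log2 oxygen effect in AAP than in NC, among them HAC1, which fell further. Without the array the test of AAP minus NC called 545 probe sets (9.91%; 212 lower, 3.86%). Of the 19 folding genes 8 were lower in AAP and 0 higher, and 7 and 0 without the array. MPD1, a disulfide isomerase homolog, had log2 differences of -0.01 in AAP and 1.02 in NC (difference -1.03, adjusted p = 0.00671), and SIL1 had -0.24 and 0.86 (difference -1.09, adjusted p = 0.00400). For KAR2 the difference was -0.75 (adjusted p = 0.00880) and for ERO1 -1.24 (adjusted p = 0.0113). Leaving out the NC anaerobic arrays with high ribosomal RNA controls as well leaves 1 array in that group. The difference from NC was then -0.61 for KAR2 and -0.86 for ERO1. Fewer folding genes were called lower in that fit, which has fewer arrays, and no counts are given. For KAR2 and ERO1 the lowest aerobic value was that of AAP aerobic replicate 2.

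Other steps of secretion moved by small amounts. Of 21 genes for entry into the endoplasmic reticulum and signal peptide removal, 9 rose and 0 fell with and without the array, with log2 differences up to 0.32. SEC65, of the signal recognition particle, rose 1.25-fold and SPC1, of the signal peptidase, 1.22-fold. In vesicle transport between the endoplasmic reticulum and the Golgi 13 of 32 rose and 1 fell (11 and 1 without the array), among them SEC21, a coat subunit, 1.40-fold, and SEC23 1.27-fold. Of 12 degradation genes of this organelle 4 rose, and of 15 genes for N-glycosylation 3 rose and 1 fell. Among all probe sets 21.2% were higher and 17.2% lower, and the rises in N-glycosylation were near that share.

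Within O-mannosylation, 3 of 6 genes rose with and without the array: PMT3 2.43-fold, from 6.84, 6.77 and 6.94 to 8.02, 8.17 and 8.21, PMT5 2.24-fold and PMT2 1.30-fold. PMT1 and PMT4, other members of the family, had log2 differences of 0.06 and 0.02. For processing of the secretory leader and vacuolar proteolysis 4 of 11 rose and 1 fell (5 and 0 without the array). KEX2, the protease that cuts the alpha factor leader, read 6.68, 6.71 and 6.62 against 6.73, 6.85 and 6.67 and did not pass (adjusted p = 0.341). The vacuolar proteases PEP4 and APE1 rose 1.32-fold and 1.99-fold. TEF2, whose probe set also reads TEF1, the source of the amylase promoter, had a log2 difference of 0.04 (adjusted p = 0.441).

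**Figure D4:**
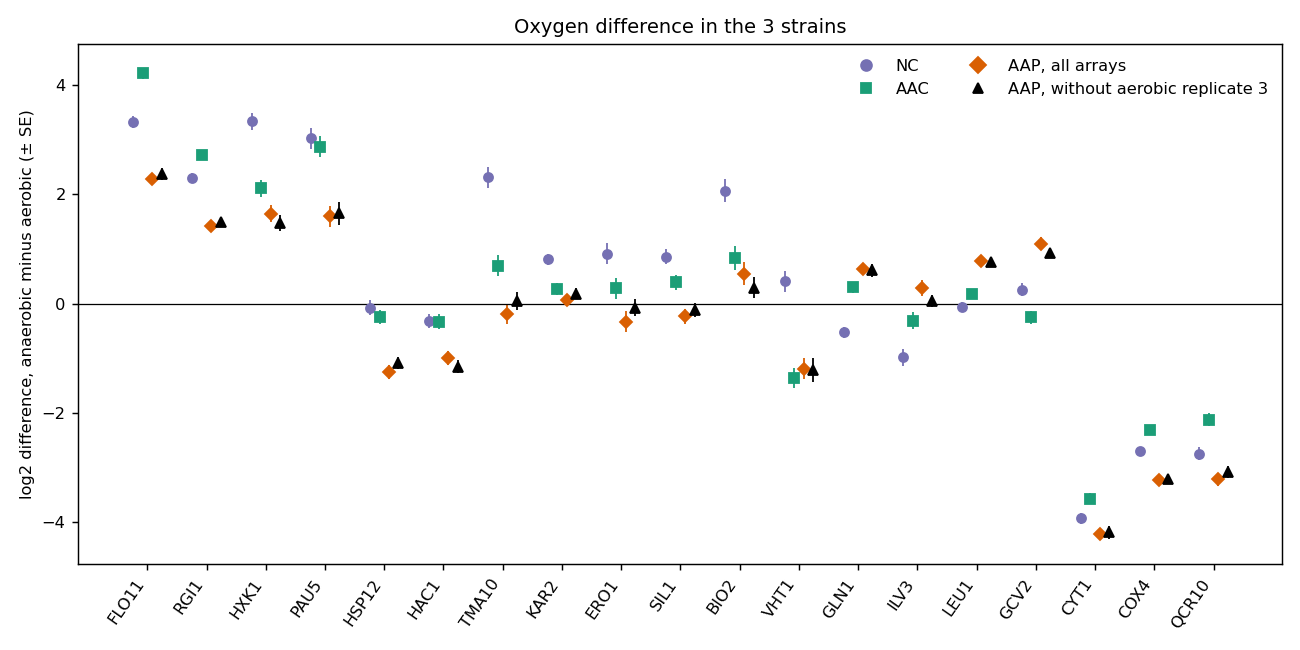
Log2 difference, anaerobic minus aerobic (vertical axis), of 19 genes in NC, AAC and AAP, with AAP given from all arrays and with aerobic replicate 3 left out. Points are fitted differences and bars are SE from limma. AAP lies below both other strains for FLO11 (2.28), HAC1 (-0.99) and COX4 (-3.23) and above both for LEU1 (0.78) and GCV2 (1.09).

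Biotin genes responded differently in AAP and NC. In AAP 0 of 6 rose and 1 fell, while 5 of 6 were lower than in NC with all arrays and without the array. BIO5, a transporter of a biotin precursor, was at background on all 6 AAP arrays, so no size is given for it. BIO3 read 6.01, 5.90 and 6.22 in air and 5.92, 5.98 and 5.89 without, with overlap, and differed from NC by -1.88 (adjusted p = 3.80e-08). VHT1, the biotin permease, was the member that fell, 2.29-fold, from 8.60, 8.25 and 8.36 to 7.03, 7.46 and 7.13. The corresponding differences from AAC did not pass, at -0.16 for BIO3 and 0.17 for VHT1.

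Amino acid biosynthesis fell on balance, with 25 falls and 7 rises among 49 measured genes (25 and 6 without the array). ARG1 read 10.15, 10.39 and 10.58 in air and 8.76, 8.65 and 8.67 without, 3.20-fold lower, and LYS9 fell 2.01-fold. The rises included the leucine genes LEU2 (2.61-fold) and LEU1 (1.71-fold), BAT1 (2.23-fold), a branched-chain aminotransferase, and GLN1 (1.55-fold), glutamine synthetase. LEU1 read 7.74, 7.96 and 7.80 against 8.69, 8.70 and 8.44, without overlap, and its log2 difference of 0.78 exceeded the -0.06 of NC and the 0.18 of AAC (differences 0.83, adjusted p = 0.000487, and 0.60, adjusted p = 0.00740). The test of AAP minus NC called 441 probe sets higher (8.02%, and 6.06% without the array). In it 21 of the 49 genes were higher in AAP and 0 lower (23 and 0 without the array). Fewer genes of this list were called higher with the NC anaerobic arrays of high ribosomal RNA controls left out too. That fit keeps 1 array in the NC anaerobic group, so no count is given. GLN1 differed from NC by 1.16 (adjusted p = 0.000422), and ILV3 by 1.27 (adjusted p = 0.00329) although its own log2 difference of 0.28 in AAP did not pass (0.46, adjusted p = 0.0180, without AAP aerobic replicate 2).

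In glycine cleavage and one-carbon metabolism 5 of 9 genes rose and 3 fell (4 and 3 without the array). The 3 GCV genes, which encode subunits of the glycine cleavage complex, rose, while LPD1, the dihydrolipoamide dehydrogenase that this complex shares with enzymes of the TCA cycle, fell 1.53-fold. SHM1 and MIS1, mitochondrial enzymes of the folate route, fell 1.39-fold and 1.42-fold. With only the AAP arrays fitted they were not called (adjusted p = 0.0821 and 0.0514). GCV2 read 7.69, 8.0 and 7.33 in air and 8.82, 8.86 and 8.62 without, 2.14-fold higher, GCV1 rose 1.56-fold and GCV3 1.37-fold. In AAC GCV2 had a log2 difference of -0.25, and AAP exceeded it by 1.34 ± 0.17 (SE, adjusted p = 0.000443). GCV1 exceeded AAC by 0.79 (adjusted p = 0.00143). CAR2, of arginine breakdown, was likewise higher in AAP than in AAC, by 0.88 (adjusted p = 0.000621). PDH1, of propionate metabolism, fell by less in AAP (log2 difference -1.42) than in AAC (-2.20).

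Ribosome biogenesis and pyrimidine genes had small median log2 differences in AAP itself. Their direction depended on the array labelled AAP aerobic replicate 3. Of 61 biogenesis factors 6 rose and 0 fell with all arrays, but 4 rose and 14 fell without the array, with medians of 0.03 and -0.07. Among them DBP2 had a log2 difference of -0.58 without the array (adjusted p = 0.00130) and 0.48 against that array alone. Against NC 28 of these factors were higher in AAP (30 without the array). Fewer were called with the NC anaerobic arrays of high ribosomal RNA controls left out too. That fit keeps 1 array in the NC anaerobic group, so no count is given. RRP5 read 8.45, 8.52 and 8.06 in air and 8.69, 8.59 and 8.51 without, and was higher than in NC by 0.89 (adjusted p = 0.00376) and than in AAC by 0.78 (adjusted p = 0.0125). Of 11 pyrimidine genes limma called 0 with all arrays and 5 falls without the array. Against that array alone the called genes of both lists were mainly higher. FUI1, the uridine permease, had a log2 difference of -0.25 in AAP and -1.40 in NC (difference 1.15, adjusted p = 0.000422).

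In central carbon metabolism, 7 of 23 genes of glycolysis and ethanol formation rose and 1 fell (11 and 2 without the array). HXK1, hexokinase I, read 8.09, 7.50 and 7.29 in air and 9.28, 9.39 and 9.13 without, 3.13-fold higher without overlap. Its log2 difference was 1.64 in AAP and 3.33 in NC, -1.69 apart (adjusted p = 0.000487). PFK1 and PFK2, the phosphofructokinase subunits, rose 1.33-fold and 1.29-fold. TDH1 read 10.45, 10.40 and 11.66 against 11.30, 11.27 and 11.28, so its call rests on the aerobic array in question: the log2 difference was 0.45 (adjusted p = 0.118) with it and 0.86 (adjusted p = 3.43e-09) without.

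Storage carbohydrate genes rose for 9 of 17 and fell for 2, with and without the array. GSY1, glycogen synthase, read 6.69, 6.50 and 6.24 in air and 7.91, 8.14 and 7.92 without, 2.86-fold higher, and GPH1, glycogen phosphorylase, rose 2.38-fold. GLC3, the branching enzyme, rose by less than in NC (log2 differences 0.56 and 1.41, -0.86 apart, adjusted p = 8.31e-05). Of the hexose transporters and sensors HXT1, a low-affinity transporter, fell 2.68-fold, from 8.13, 8.03 and 8.49 to 6.87, 6.79 and 6.73, and by less than in NC (difference 0.72, adjusted p = 0.0175, and 0.0510 without AAP anaerobic replicate 1). RGI1, a gene of energy metabolism, rose 2.66-fold, from 6.74, 6.37 and 6.81 to 8.01, 8.04 and 8.10, by less than in NC (-0.88, adjusted p = 0.00119) or AAC (-1.30, adjusted p = 5.28e-05).

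Stress and redox defence genes did not move as a block. Of 24 genes against peroxide and superoxide 6 rose and 10 fell (5 and 10 without the array). SOD2, the mitochondrial superoxide dismutase, read 9.50, 9.53 and 9.62 in air and 7.01, 7.0 and 7.11 without, 5.68-fold lower, and the cytosolic enzyme SOD1 fell 1.56-fold. TSA2, a peroxiredoxin, rose 2.06-fold and its relative TSA1 fell 1.52-fold. Of 24 heat shock genes 2 rose and 7 fell (3 and 8 without the array). HSP12, a small membrane-associated stress protein, read 8.49, 8.71 and 9.12 against 7.57, 7.29 and 7.68, 2.39-fold lower without overlap (log2 difference -1.26 ± 0.13, SE). NC and AAC gave -0.07 and -0.25 for HSP12, and AAP lay lower by -1.18 (adjusted p = 0.00216) and -1.01 (adjusted p = 0.00885). TMA10, a paralog of STF2, had a log2 difference of -0.19 in AAP and 2.31 in NC (-2.50 apart, adjusted p = 8.31e-05).

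Genes for making deoxynucleotides rose for 6 of 8, with 1 fall (6 and 0 without the array). HUG1, an inhibitor of ribonucleotide reductase that answers DNA replication stress, read 5.40, 5.44 and 5.54 in air and 9.65, 9.42 and 10.19 without, at least 18.1-fold higher. RNR4, RNR3 and RNR2, subunits of the reductase, rose 2.34-fold, 2.15-fold and 1.78-fold. DIF1, which governs where the small subunits lie in the cell, rose 3.72-fold, and SML1, an inhibitor, fell 1.14-fold with all arrays and lost the call without the array or without AAP anaerobic replicate 2 (adjusted p = 0.0585) or 3 (adjusted p = 0.0587).

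Zinc genes mostly rose, while iron genes did not move as a group. In the zinc response 8 of 10 rose and 0 fell, with and without the array: IZH4 at least 5.50-fold, from 5.30, 5.33 and 5.42 to 7.83, 8.16 and 8.12, IZH2 3.84-fold, and the zinc importer ZRT1 1.65-fold. ZPS1, a zinc-responsive cell surface gene, had overlapping arrays, at 9.91, 8.40 and 7.51 against 9.68, 10.75 and 10.40. In iron uptake 5 of 27 rose and 6 fell (7 and 5 without the array), near the 21.2% higher and 17.2% lower of all probe sets. FET4, a low-affinity metal importer, rose 6.53-fold, and FRE1, a ferric reductase at the cell surface, fell 4.80-fold. FET3, the oxidase of high-affinity iron uptake, which uses oxygen, read 8.44, 8.97 and 9.68 against 7.79, 7.61 and 7.70, 2.52-fold lower, and lost the call without the array (log2 difference -1.01, adjusted p = 0.0599).

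Several iron and phosphate genes depended on the array labelled AAP aerobic replicate 3. FIT2, a cell wall protein for siderophore iron, read 7.18, 7.24 and 10.14 in air and 9.79, 9.52 and 10.07 without: its log2 difference was 1.61 (adjusted p = 0.0708) with the array and 2.58 (adjusted p = 0.000761) without it. FIT3 moved from 1.95 to 2.72 and TIS11, which degrades RNAs when iron is short, from 0.89 to 1.45. PHO5, a secreted acid phosphatase, read 6.03, 6.89 and 8.54 against 6.35, 6.39 and 6.40, and its log2 difference moved from -0.77 (adjusted p = 0.156) to -0.08 (adjusted p = 0.820), while without AAP aerobic replicate 1 it was -1.33 (adjusted p = 0.00673). In the phosphate regulon 0 of 18 rose and 6 fell with the array, and 2 rose and 4 fell without it.

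The largest shift was that of HES1, an oxysterol-binding protein, which read 5.55, 5.54 and 9.24 in air and 9.51, 9.35 and 9.52 without. With all arrays HES1 had a log2 difference of 2.68 ± 0.64 (SE, adjusted p = 0.00361), from a spread shared by all 6 groups. With only the AAP arrays fitted HES1 was not called (adjusted p = 0.0878). In that fit DET1 (adjusted p = 0.188), GSC2 (0.141), ZPS1 (0.0875), FIT3 (0.0618) and SNZ1 (0.0607) were not called either. Without the array the aerobic level of HES1 was at background and HES1 rose at least 14.8-fold (adjusted p = 7.06e-15). The aerobic AAC arrays already read 9.19 to 9.27, and those of NC were at background. DET1 went from -1.90 (adjusted p = 0.0235) to -0.71 (adjusted p = 4.20e-06). With that array kept, DET1 lost its call without AAP anaerobic replicate 1 (adjusted p = 0.0502) or 3 (adjusted p = 0.0661). These 2 genes moved by more than 1 log2 unit, and 14 probe sets by more than 0.5. GSC2, a glucan synthase subunit, moved from 1.12 to 1.73 and lost its call without AAP aerobic replicate 1 (adjusted p = 0.0750) or 2 (adjusted p = 0.0771) or anaerobic replicate 2 (adjusted p = 0.0519). YGP1, a secreted glycoprotein, moved from -0.35 to 0.33, YET2 from -0.77 to -0.18, the siderophore transporter ARN1 from -0.26 to 0.28, SNZ1, of vitamin B6 synthesis, from -1.37 to -0.83, and ZPS1 from 1.67 to 1.13. For YGP1 the direction turned: it was not called with all arrays (adjusted p = 0.467), was called higher without the array (adjusted p = 0.00562) and was called lower against that array alone (-1.71, adjusted p = 2.39e-08). DAK2, dihydroxyacetone kinase, was at background on all 6 AAP arrays. In NC it read 7.36, 7.49 and 7.47 in air and 8.24, 7.80 and 7.88 without oxygen.

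**Figure D5:**
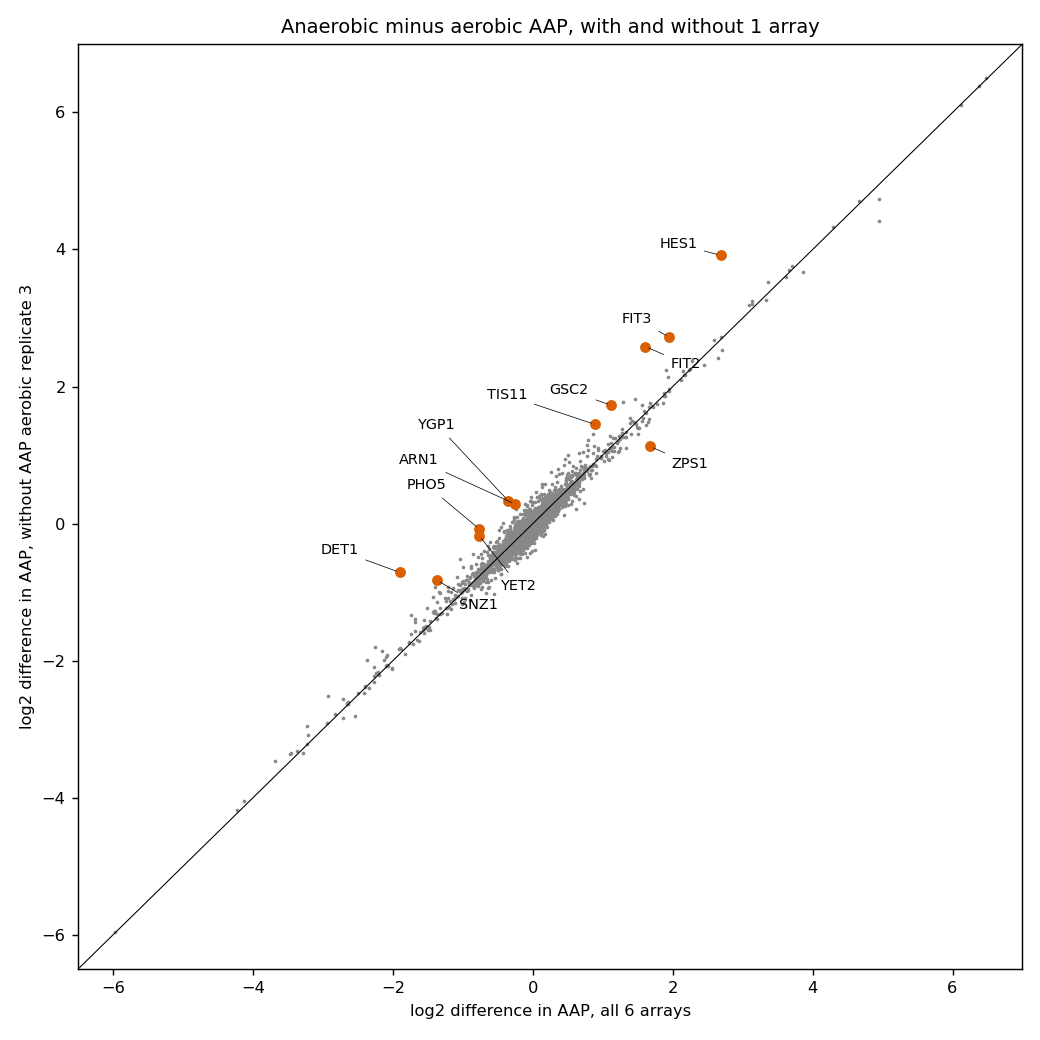
Log2 difference in AAP (anaerobic minus aerobic) of each of the 5498 probe sets, from all 6 AAP arrays (horizontal axis) and with aerobic replicate 3 left out (vertical axis). The line marks equal values and the orange points are the 12 probe sets that moved most, among them HES1 (2.68 and 3.92) and DET1 (-1.90 and -0.71).

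Between strains, 475 probe sets differed from NC both with and without the array, 296 higher and 179 lower in AAP. All 475 kept their sign with the NC anaerobic arrays of high ribosomal RNA controls left out too, but most were no longer called. That fit keeps 1 array in the NC anaerobic group. It shares its other arrays with the fits that chose these probe sets. From AAC 167 differed, 99 higher and 68 lower. All 167 kept their sign with the AAC anaerobic array of high ribosomal RNA controls left out too, and 131 were called. Both differences use the same AAP arrays, so they are not independent of each other. Among probe sets that differed from AAC with and without the array, the largest difference was that of ULI1, whose role is not given here, with log2 differences of -0.27 in AAP and 1.75 in AAC (-2.02 apart, adjusted p = 8.76e-06). SAG1, alpha-agglutinin of mating, rose by 0.29 in AAP and 1.44 in AAC (-1.15 apart, adjusted p = 1.56e-07). From NC, STF2, a stabilizer of the inhibited ATP synthase, differed by -1.91 (adjusted p = 0.00696), DBP2, an RNA helicase, by 1.13 (adjusted p = 0.0288) and ARB1, a ribosome biogenesis ATPase, by 1.13 (adjusted p = 0.0199). With 1 NC anaerobic array kept, that of low ribosomal RNA controls, STF2 differed by -1.06, DBP2 by 0.79 and ARB1 by 0.58. Leaving out any 1 of 7 single arrays ended the call of DBP2 (adjusted p up to 0.0744), as did any 1 of 2 for ARB1 (adjusted p = 0.0536 and 0.0553). Within AAP, leaving out aerobic replicate 2 called RRP5 (0.35, adjusted p = 0.0270), TMA10 (-0.48, adjusted p = 0.0124), STF2 (-0.61, adjusted p = 0.0448), YET2 (-1.19, adjusted p = 0.00808) and ULI1 (-0.37, adjusted p = 0.0309).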

How the data were processed

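The 18 samples were hybridized to Affymetrix Yeast Genome 2.0 arrays, which also carry probe sets of fission yeast. The deposited series matrix gives the authors' normalized values per probe set, read here as log2 from their range of 4.85 to 12.81. The submitters' processing notes name PLIER, an Affymetrix signal estimate, and R 2.10.1, with no role given, and the reference used to scale the arrays is not given in the sources used here. Probe sets were named from the platform annotation, updated through RefSeq: of 10928, 7244 had 1 gene, 1 had several and 3683 had none. The 5498 S. cerevisiae probe sets with 1 gene were tested, 128 of them shared by near-identical genes. The 1746 fission yeast probe sets set a background of 5.58. A gene whose lower group mean lay under it is given as at least that fold above background, and a gene with both means under it has no fold.

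limma 3.58.1 in R 4.3.3 (lmFit and eBayes, two-sided) was fitted to 6 group means over all 18 arrays, with Benjamini-Hochberg adjustment over all tested probe sets. All adjusted p-values in the text come from it. The procedure was tested on simulated data with independent normal noise, whose spread was taken from the groups other than aerobic AAP. Those data held no array that goes against its label and no split of control probe sets, so they do not bear on either. Replicates are labelled as biological. The members, gene lists and tests were chosen with earlier results of these data known. Genes named are the 15 largest rises and falls called with all AAP arrays and with aerobic replicate 3 left out, members of the lists, the 12 probe sets that this array moved most, the 5 largest strain differences each way that passed both ways, and the plasmid, TPI1 neighbour and folding genes. Of the 4 longest lists only the 4 with the smallest p each way could be named by list. Alternatives tried were quantile normalization, centring on medians, removal of dim probe sets, a trended and robust eBayes, a replicate block, only the groups compared, and each replicate left out.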

Additional observations from a re-analysis of the deposited data

Results flagged for a closer look

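The following named genes were called in AAP and differed between strains in all 3 fits, by 0.5 or more on the log2 scale when every array was used. The other fits left out AAP aerobic replicate 3, alone or together with the anaerobic arrays of high ribosomal RNA controls. Against NC the last of these fits keeps 1 NC anaerobic array, so the choice of genes against NC rests in part on that array. Relative to NC, the log2 oxygen effect of AAP was lower for HXK1 (-1.69), VHT1 (-1.60), PAU5 (-1.43), HSP12 (-1.18), FLO11 (-1.05), DAN4 (-0.97), RGI1 (-0.88), GLC3 (-0.86) and HAC1 (-0.67). It was higher for GLN1 (1.16), GCV2 (0.85), LEU1 (0.83), HXT1 (0.72), LEU2 (0.59) and ACO1 (0.56).

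Relative to AAC, the effect was lower for FLO11 (-1.93), RGI1 (-1.30), PAU5 (-1.27), SAG1 (-1.15), HSP12 (-1.01), CWP2 (-0.70) and TSA1 (-0.52). Among respiratory genes it was lower for QCR10 (-1.09), QCR9 (-1.06), COX4 (-0.91), COX5A (-0.83), COX12 (-0.78), INH1 (-0.73) and RIP1 (-0.73). It was higher for GCV2 (1.34), CAR2 (0.88), GCV1 (0.79), PDH1 (0.77), LEU1 (0.60), HEM14 (0.54) and ACO1 (0.53). With each of 12 single replicates left out in turn, the call against NC was lost in 9 fits for LEU2, 7 for HAC1 and 1 for HXT1. The call against AAC was lost in 8 for TSA1, 4 for ACO1, 4 for PAU5 and 3 for QCR9.

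Control probe sets, which the comparisons do not use, also differed between anaerobic and aerobic AAP. The log2 difference was 1.08 for the middle section of bioB and -3.39 for the middle section of 25S ribosomal RNA. For 1 reporter control probe set of the array it was 2.98.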

How the results depend on the processing

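The counts for AAP stayed within 1.5 times of 2110 under every alternative run, from 1527 with only its own arrays to 2447 against the array labelled AAP aerobic replicate 3 alone, and from 1768 to 2303 with 1 replicate left out (945 to 1160 higher, 823 to 1143 lower), though centring turned the majority from higher to lower (998 and 1115). Combinations with that array left out, the bioB setting and the ribosomal RNA settings were chosen after seeing the data. For AAP minus NC (687), only the groups compared gave 308 (176 higher, 132 lower), and leaving out the arrays with high ribosomal RNA controls gave 210 (88 and 122). Without the array, quantile normalization gave 270 higher and centring on medians 276. Leaving out 1 replicate gave 236 to 1338 (129 to 847 higher, 107 to 491 lower): 1194 without AAP aerobic 2, 264, 266 and 344 without NC aerobic 1, 2 and 3, 236 and 337 without AAP anaerobic 1 and 2, and 1338, 262 and 354 without NC anaerobic 1, 2 and 3.

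For AAP minus AAC (195), only the groups compared gave 92 (45 higher, 47 lower), and centring gave 72 higher and 96 lower, 42.9% higher against 60.5%. Without the array, the replicate block gave 196 higher, quantile normalization 315 (181 and 134), centring 298 with 154 lower, and leaving out the AAC array with high ribosomal RNA controls 122 lower. Leaving out 1 replicate gave 69 to 424 (28 to 284 higher, 41 to 140 lower): 80 and 84 without AAC aerobic 2 and 3, 107 and 424 without AAP aerobic 1 and 2, 78 without AAC anaerobic 2, and 79, 69 and 332 without AAP anaerobic 1, 2 and 3. The cause of these moves was not tested.

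Some genes reversed. YGP1 gave -0.70 to 0.33 with 1 replicate left out, 0.33 without the array, also with only the groups compared, 0.34 with the replicate block or quantile normalization and 0.31 centred, and ARN1 gave 0.28 without it in its own groups. Against that array alone DBP2 gave 0.48, GSC2 -0.10 and TDH1 -0.37, and YGP1 was called at -1.71. The replicate numbers share only a number: deviations of same-numbered AAP arrays correlated at 0.210, -0.0297 and 0.233, and the replicate block gave 2144, 860 and 218 calls for AAP, AAP minus NC and AAP minus AAC.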

Other observations

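Of the 3683 probe sets without a gene name, 106 were called in AAP both with all arrays and with AAP aerobic replicate 3 left out. By 2-fold or more in both fits, 4 of them were higher and 12 lower, of which 13 were control probe sets of the array (bioB, a reporter, ribosomal RNA and RIP1) and 3 were not controls, 1 higher and 2 lower.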
